A study of Mus musculus with 7 samples.

Results

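The transcripts examined here encode the AP-1 and EGR factors Fos, Fosb, Fosl1, Fosl2, Jun, Junb, Jund, Egr1, Egr2 and Atf3. They were chosen by name: all 11 probes of the array whose gene name was one of these 10 symbols were taken, out of 39429 probes, and 10 of them, 1 for each gene, could be tested. RNA came from cultures of the mouse muscle line C2C12 kept for 24 h with exosomes that other C2C12 cells had released. In the group EXO-Post Palm (3 arrays) the donor cells had been treated with palmitate at 0.5 mmol/l, and in EXO-Post BSA (4 arrays) with the albumin carrier alone. Per the paper, exosomes were gathered 9 h after the palmitate had been taken away, so they were not released during the exposure itself. The recipient cells of both groups therefore received exosomes, and no array measured cells without them. The paper describes differentiated myotubes in serum-free medium as recipients, whereas the labels give the cell type as myoblast. The labels call the arrays biological replicates.

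Fos and Jun proteins are leucine zipper factors that pair with each other to form AP-1, which binds DNA at sites next to many growth, matrix and stress genes. EGR proteins bind GC-rich sites through zinc fingers. Most of these genes are immediate early genes: serum, stretch or growth factors switch them on within minutes through MAP kinases and the factors SRF and ELK, and their transcripts usually decay within hours, while Jund and Fosl2 are expressed more steadily and Fosl1 tends to accumulate later.

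None of the 10 tested member probes passed the threshold after 24 h with EXO-Post Palm. The threshold was an adjusted p of 0.05 in limma (Benjamini-Hochberg, 2-sided), which 115 of the 21589 tested probes passed, or 0.533% (0.463% higher and 0.0695% lower in EXO-Post Palm). Of the members, 5 had fitted differences above 0 and 5 below, with a median log2 fold change of 0.00 beside -0.02 over all tested probes. At an unadjusted limma p under 0.05, the 2 members below it were Fosl1, with a higher mean in EXO-Post Palm, and Egr1, with a lower mean, against 10.0% of all tested probes (4.85% higher and 5.19% lower). Both were also the members whose groups did not overlap, which held for 11.2% of the 21137 tested probes with a value on every array (5.44% higher and 5.79% lower). Values are processed signals on the log2 scale, set so that 0 is the 75th percentile of their own array. They can be compared between arrays, but a brighter probe need not stand for a more abundant transcript. The marker sums below add the signals of different probes as they are, so the bright probes weigh most in them.

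The arrays were of RNA with the muscle programme present. Signals of the muscle markers, relative to the 75th percentile and summed over 8 genes, ran from 409 to 541 on EXO-Post BSA arrays and from 399.9 to 504 on EXO-Post Palm arrays, and 0 of the 10 tested markers passed, from -0.46 in Myh3 (adjusted p = 0.512 in limma) to 0.50 in Des (adjusted p = 0.446). The summed signals of the markers of proliferating myoblasts did not overlap between the groups. This sum over 5 genes ran from 2.09 to 2.77 in EXO-Post BSA and from 7.43 to 16.8 in EXO-Post Palm. Of the 5, 3 passed, all higher, namely Ccnb1 (log2 fold change 2.76, adjusted p = 0.0108 in limma), Top2a (2.36, adjusted p = 0.0141) and Mki67 (2.12, adjusted p = 0.0436). Pax7 was lowest at -0.21 (adjusted p = 0.852) and its groups overlapped, and Myf5 was too dim to test. Of other cell types, 0 of 4 tested macrophage and leukocyte markers passed (sums of 7.85 to 18.1 in EXO-Post BSA and 5.95 to 7.56 in EXO-Post Palm), with Ptprc, Cd68 and Lyz2 too dim to test. These sums did not overlap either, and the genes went both ways, with Itgam at -1.63 (adjusted p = 0.111 in limma), Csf1r at 0.45 (0.614), Emr1 at 0.58 (0.689) and Cd14 at 1.05 (0.219). The lower sums in EXO-Post Palm came from the Itgam probe, the brightest of the 4 (means of 3.32 in EXO-Post BSA and 1.70 in EXO-Post Palm) and the only one with a lower mean. Likewise 0 of 3 tested endothelial markers passed (4.24 to 5.44 and 3.1 to 6.44), and none of 5 adipocyte markers was bright enough to test. The part of these markers in the values below was not tested, and in such bulk RNA a smaller share of cells of one type and less RNA per cell cannot be told apart. The arrays lay on 4 slides, of which slide 1 (EXO-Post BSA replicates 1 and 2, EXO-Post Palm replicate 1) and slide 3 (EXO-Post BSA replicate 4, EXO-Post Palm replicate 3) held both groups. Each member's difference is therefore also given within these slides.

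**Figure D1:**
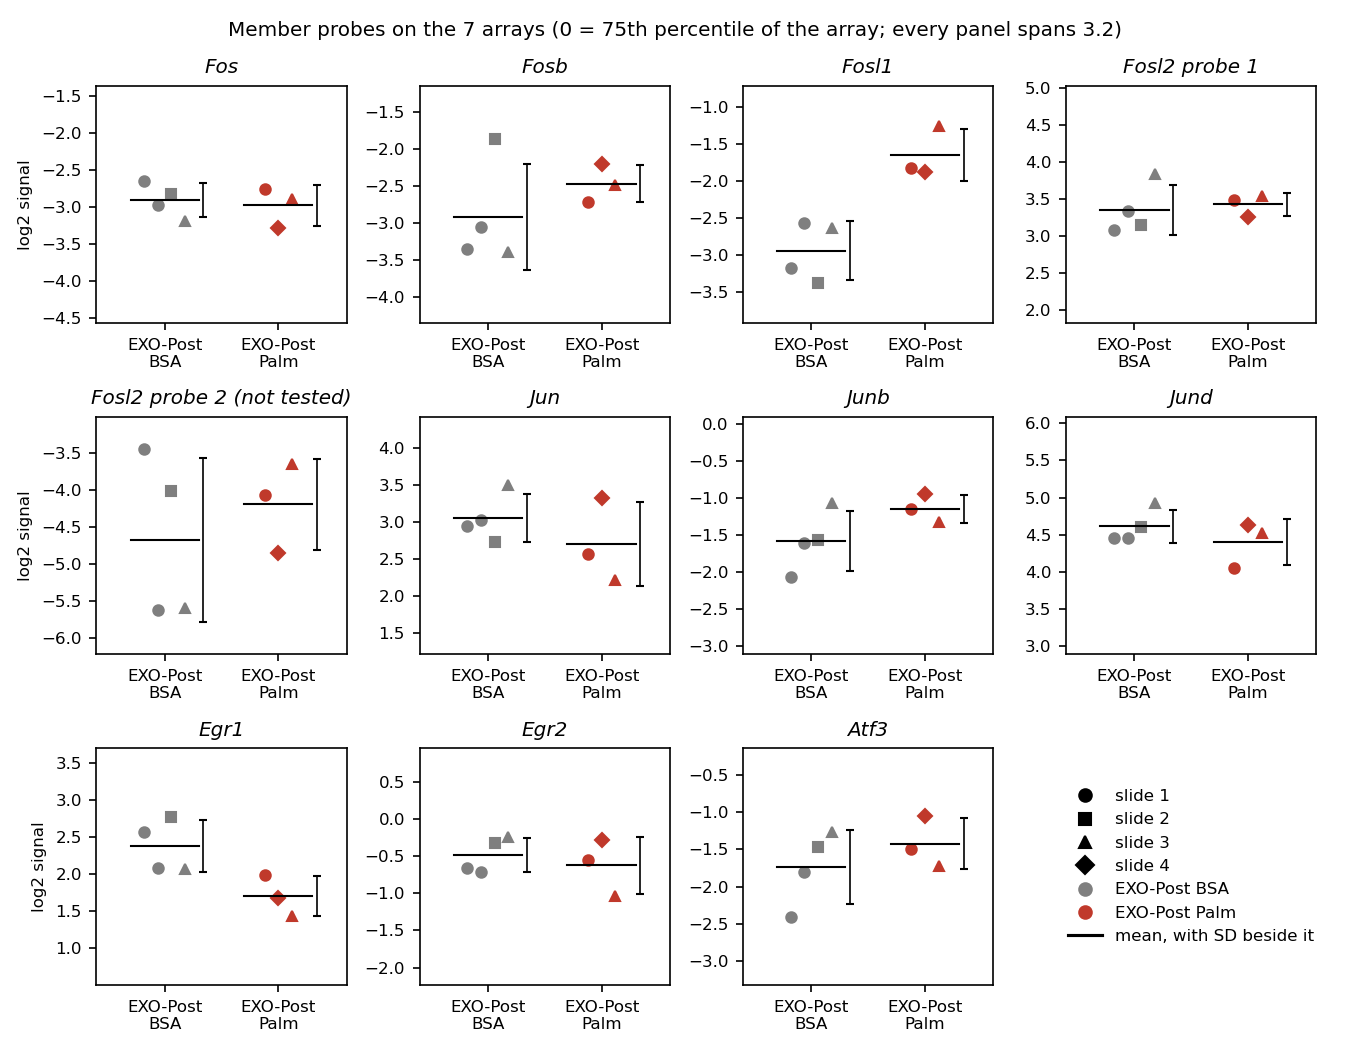
Normalised log2 signal of the 11 member probes (vertical axes, 0 being the 75th percentile of the array) on each of the 7 arrays, by group (horizontal axes), with marker shapes for the 4 slides, a line at the group mean and the SD beside it. The groups lie apart for Fosl1 (EXO-Post Palm from -1.89 to -1.26, EXO-Post BSA from -3.39 to -2.57) and, narrowly, for Egr1.

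Fosl1 encodes Fra-1, a Fos family protein that lacks the transactivation domain of c-Fos and is itself induced through AP-1. Its probe lies at chr19:5455496-5455555 (mm9, plus strand), at position 1262 of the transcript. It measured -3.18, -2.57, -3.39 and -2.64 on EXO-Post BSA arrays 1 to 4 (in replicate order, as for every gene below), against -1.83, -1.89 and -1.26 on the 3 EXO-Post Palm arrays. Every EXO-Post Palm array was above every EXO-Post BSA array, with a gap between -2.57 and -1.89. The means were -2.95 ± 0.40 (SD, n = 4) and -1.66 ± 0.35 (SD, n = 3). The log2 fold change was 1.29 (SE 0.28, 95% confidence interval 0.65 to 1.93), a fold of 2.45 with an interval from 1.57 to 3.81, and limma gave an unadjusted p of 0.00146 and an adjusted p of 0.128. By unadjusted p the probe stood at rank 247 of the tested probes. The 35 possible splits of the arrays into 4 and 3 gave an exact permutation p of 0.0286 (2-sided), the smallest this design allows.

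The difference for Fosl1 had the same sign on both slides that held the 2 groups, at 1.05 on slide 1 and 1.39 on slide 3. All 7 arrays had it well above background, although the processed signals were low: 128, 152, 81.5 and 116 units on the EXO-Post BSA arrays, and 457, 176 and 230 on the EXO-Post Palm arrays. EXO-Post Palm replicate 2, at 176 units, was close to EXO-Post BSA replicate 2, at 152, and the gap between these arrays on the log2 scale came mainly with their different 75th percentiles, 648 and 903 units. Settings that started from the unprocessed median intensity, with 50 units added after background correction, gave smaller values. The log2 fold change was 0.69 after normexp background correction and 0.65 after subtraction with a floor. The part of the added units was not tested, and the authors' processed values gave 0.85. The probe did not pass the adjusted threshold in any of 21 alternative settings, in which its adjusted p ran from 0.0635 to 0.512.

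Fos encodes c-Fos, the founding AP-1 subunit and the classic early response gene. Its probe was printed 10 times on each array and lies at chr12:86817900-86817959 (mm9, plus strand). It measured -2.64, -2.96, -2.82 and -3.19 on the EXO-Post BSA arrays and -2.76, -3.29 and -2.89 on the EXO-Post Palm arrays. The groups overlapped, and the highest and the next highest array came from different groups. Fos had a log2 fold change of -0.07 (SE 0.23, 95% confidence interval -0.59 to 0.45, adjusted p = 0.941 in limma). Within slides 1 and 3 it was 0.04 and 0.30, above 0 where the fit over all arrays was below it. The SD of log2 signal over the printed copies ran from 0.156 on EXO-Post BSA replicate 2 to 0.670 on EXO-Post Palm replicate 2, the array with the lowest Fos value. On EXO-Post BSA replicates 1 and 3 only 8 of the 10 copies were used. Processed signals of Fos were low, from 66.5 units on EXO-Post Palm replicate 2 to 239 on EXO-Post Palm replicate 1.

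Fosb encodes a further Fos protein, known also for a long-lived truncated form that builds up with repeated stimulation. Its probe lies at chr7:19888168-19888227 (mm9, minus strand), and whether it reads both forms was not examined. Its values were -3.35, -3.06, -1.87 and -3.39 on the EXO-Post BSA arrays and -2.71, -2.21 and -2.49 on the EXO-Post Palm arrays. EXO-Post BSA replicate 3 held the highest value of all 7 arrays, while the other EXO-Post BSA arrays lay below every EXO-Post Palm array. Fosb had a log2 fold change of 0.45 (SE 0.38, 95% confidence interval -0.41 to 1.31, adjusted p = 0.732 in limma). Without EXO-Post BSA replicate 3, which alone was on slide 2 and was read by a later release of the scanner software, it was 0.80, and without EXO-Post BSA replicate 4 or 1 it was 0.29 and 0.30. Within slides 1 and 3 it was 0.49 and 0.91. Processed signals of Fosb were likewise low, from 69.1 units on EXO-Post BSA replicate 4 to 247 on EXO-Post Palm replicate 1.

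Fosl2 encodes Fra-2, the other Fos relative without a strong activation domain, and was the member measured by 2 probes. Probe 1 lies at chr5:32460076-32460135 (mm9, plus strand, transcript position 5726) and measured 3.09, 3.34, 3.16 and 3.85 on the EXO-Post BSA arrays against 3.50, 3.26 and 3.55 on the EXO-Post Palm arrays. The groups overlapped fully, EXO-Post BSA arrays being both the lowest and the highest. Its log2 fold change was 0.08 (SE 0.24, 95% confidence interval -0.47 to 0.62, adjusted p = 0.941 in limma), with 0.28 on slide 1 and -0.30 on slide 3.
Probe 2 lies nearer the start of the transcript, at position 738 and chr5:32455088-32455147 (mm9, plus strand). It is shown because it reads the same transcript and yet stayed near background, being well above it on 2 of 4 EXO-Post BSA arrays and 2 of 3 EXO-Post Palm arrays, and it was not tested.
Fosl2 probe 2: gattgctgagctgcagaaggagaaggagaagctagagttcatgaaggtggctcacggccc
It measured -3.45, -5.62, -4.01 and -5.59 on the EXO-Post BSA arrays and -4.07, -4.85 and -3.64 on the EXO-Post Palm arrays. These span more than the values of probe 1, and the groups overlapped.

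Jun encodes c-Jun, the main partner of Fos proteins and a target of the kinase JNK. Its probe lies at chr4:94716928-94716987 (mm9, minus strand). It measured 2.94, 3.02, 2.72 and 3.49 on the EXO-Post BSA arrays and 2.56, 3.32 and 2.22 on the EXO-Post Palm arrays. The lowest arrays were EXO-Post Palm replicates 3 and 1, but EXO-Post Palm replicate 2 was higher than all EXO-Post BSA arrays except replicate 4. Jun had a log2 fold change of -0.34 (SE 0.31, 95% confidence interval -1.05 to 0.36, adjusted p = 0.750 in limma). It was -0.42 on slide 1 and -1.27 on slide 3, and ran from -0.65 without EXO-Post Palm replicate 2 to -0.10 without EXO-Post Palm replicate 3. Its sign depended on the values used, since the authors' processed values gave 0.03 and both settings on the median intensity gave 0.02.

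Junb encodes JunB, a Jun protein that can oppose c-Jun on growth genes and that is known in muscle for its part in fibre size. Its probe at chr8:87501881-87501940 (mm9, minus strand) measured -2.06, -1.61, -1.57 and -1.07 on the EXO-Post BSA arrays and -1.15, -0.95 and -1.33 on the EXO-Post Palm arrays. Of the EXO-Post BSA arrays, replicate 4 alone reached into the range of EXO-Post Palm. For Junb the fitted difference was 0.43 (SE 0.26, 95% confidence interval -0.17 to 1.03, adjusted p = 0.627 in limma, the smallest among members after Fosl1 and Egr1). It was 0.68 on slide 1 and -0.26 on slide 3. Jund encodes JunD, the Jun protein that resting cells express. At chr8:73224436-73224495 (mm9, plus strand) it measured 4.45, 4.45, 4.61 and 4.93 on the EXO-Post BSA arrays and 4.05, 4.63 and 4.52 on the EXO-Post Palm arrays. EXO-Post Palm replicate 1 was the lowest and the other arrays intermixed, with a log2 fold change of -0.21 (SE 0.23, 95% confidence interval -0.74 to 0.32, adjusted p = 0.797 in limma) and -0.41 within each slide. Without EXO-Post Palm replicate 1 it was -0.04, and without EXO-Post BSA replicate 4 it was -0.11.

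Egr1 encodes a zinc finger factor that serum and stretch induce through SRF and that controls growth factor and matrix genes. It measured 2.57, 2.08, 2.78 and 2.07 on the EXO-Post BSA arrays and 1.99, 1.68 and 1.44 on the EXO-Post Palm arrays. All EXO-Post Palm arrays were below all EXO-Post BSA arrays, but the nearest arrays of the groups, at 1.99 and 2.07, were closer to each other than most arrays within a group. The means were 2.37 ± 0.35 (SD, n = 4) and 1.70 ± 0.27 (SD, n = 3). The log2 fold change was -0.67 (SE 0.26, 95% confidence interval -1.26 to -0.09), which makes the EXO-Post Palm mean 1.59-fold lower, and limma gave an unadjusted p of 0.0289 and an adjusted p of 0.434. The exact permutation test gave a 2-sided p of 0.0857. The difference was -0.34 on slide 1 and -0.63 on slide 3. Over the alternative settings it stayed below 0, from -0.82 to -0.46, the value nearest 0 being that with slide as a fixed block, and the adjusted p was never under 0.214.

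Egr2 encodes the related factor Krox20, best known from myelinating cells. Its probe at chr10:67004798-67004857 (mm9, plus strand) measured -0.65, -0.71, -0.31 and -0.24 on the EXO-Post BSA arrays and -0.55, -0.28 and -1.04 on the EXO-Post Palm arrays. EXO-Post Palm replicate 3 was the lowest array and the others intermixed. The log2 fold change was -0.14 (SE 0.25, 95% confidence interval -0.71 to 0.42, adjusted p = 0.882 in limma), with 0.12 on slide 1 and -0.79 on slide 3, and leaving out EXO-Post Palm replicate 3 turned it to 0.06. Atf3 encodes a stress-induced leucine zipper factor that pairs with Jun proteins and mostly represses. Its probe at chr1:192994547-192994606 (mm9, minus strand) measured -2.41, -1.80, -1.47 and -1.27 on the EXO-Post BSA arrays and -1.50, -1.05 and -1.72 on the EXO-Post Palm arrays. EXO-Post BSA replicates 1 and 2 lay below every EXO-Post Palm array and replicates 3 and 4 within their range, and the log2 fold change was 0.32 (SE 0.31, 95% confidence interval -0.39 to 1.03, adjusted p = 0.773 in limma), with 0.61 on slide 1 and -0.45 on slide 3. It was 0.09 without EXO-Post BSA replicate 1 and 0.13 without EXO-Post Palm replicate 2.

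**Figure D2:**
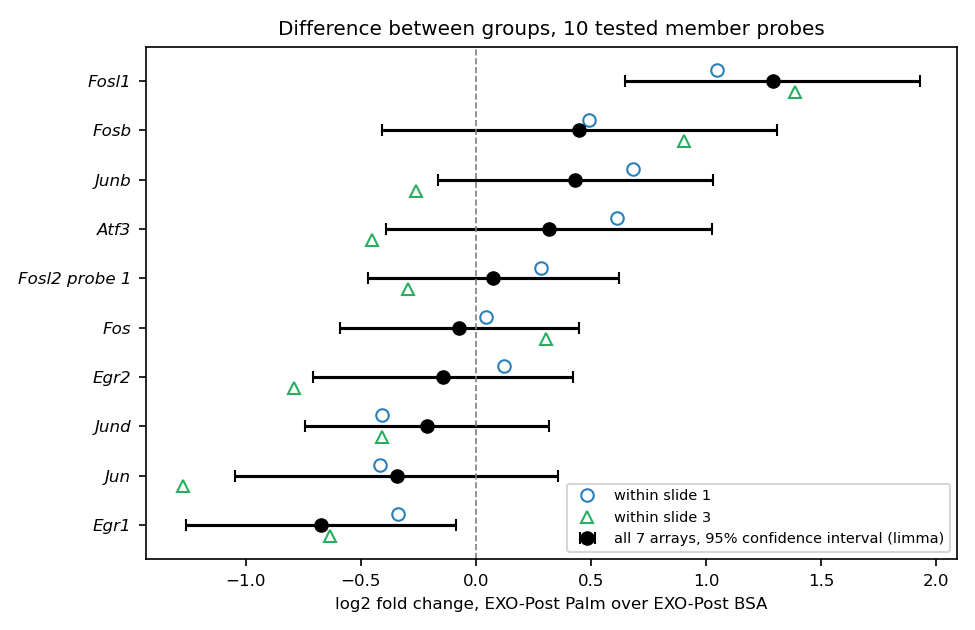
Log2 fold change of EXO-Post Palm over EXO-Post BSA (horizontal axis) for the 10 tested member probes (vertical axis), with the 95% confidence interval from limma over all 7 arrays (filled points) and the difference within slide 1 (open circles) and slide 3 (open triangles). The intervals of Fosl1 (0.65 to 1.93) and Egr1 (-1.26 to -0.09) leave out 0 before adjustment over all probes, and Junb, Atf3, Fosl2 probe 1 and Egr2 have opposite signs on the 2 slides.

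Across the members other than Fosl1 and Egr1, the largest fitted difference in either direction was 0.45 and the standard errors of all 10 tested probes ran from 0.23 to 0.38 on the log2 scale. The confidence intervals of the other 8 therefore all held 0. They also held differences of up to 1.31 in Fosb and -1.05 in Jun, so differences of that size lay within the error of 7 arrays. Differences on slide 3, where 1 array stood for each group, were below 0 for Junb, Atf3, Fosl2 probe 1 and Egr2 while those on slide 1 were above 0. For Fosl1, Fosb, Fos, Jun, Jund and Egr1 both slides had the same sign.

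**Figure D3:**
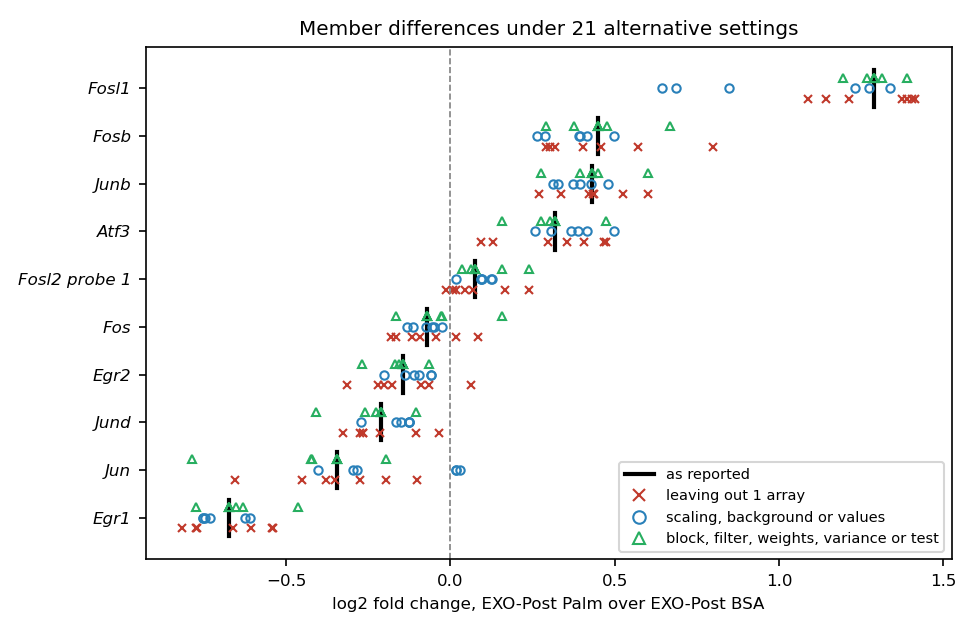
Log2 fold change of EXO-Post Palm over EXO-Post BSA (horizontal axis) of the 10 tested member probes (vertical axis) as reported (black bars) and in 21 alternative settings of 3 kinds (crosses, circles and triangles). Fosl1 stayed above 0 (0.65 to 1.41) and Egr1 below 0 (-0.82 to -0.46), whereas Fos, Fosl2 probe 1, Jun and Egr2 fell on both sides of 0.

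The start regions of the members were searched for the sites at which these factors and SRF act. Promoter windows, from 250 bases before to 50 after a gene's start, came from RefSeq on GRCm38.p6 and were given for 8 of the 10 genes in 12 windows. Fosl1 and Egr1 had no window in the table and were not searched. The letters TGACTCA (AP-1), TGACGTCA (CRE) and GCGTGGGCG or GCGGGGGCG (EGR), and the CArG box bound by SRF, were looked for on both strands, and the EGR letters overlap with those of general GC boxes. Such matches were in 5.20, 1.79, 3.47 and 1.63% of all 32851 windows in that order. Members with a match were Fosb and Fosl2, each with EGR letters, and Egr2 with CArG boxes, CCATATATGG and, in the window of another start at chr10:67537316-67537615, CCTTTTTTGG. One stretch for each gene, from 110 to 11 bases before the start and on the strand of the gene, is shown with the match in capitals, to let these letters be read in place. Fosb is at chr7:19310056-19310155 on the minus strand, Fosl2 at chr5:32136362-32136461 and Egr2 at chr10:67537759-67537858, both on the plus strand.
Fosb: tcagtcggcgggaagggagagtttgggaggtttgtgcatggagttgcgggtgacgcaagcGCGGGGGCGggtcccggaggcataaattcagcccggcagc
Fosl2: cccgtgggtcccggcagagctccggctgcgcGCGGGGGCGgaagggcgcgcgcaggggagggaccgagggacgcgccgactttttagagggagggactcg
Egr2: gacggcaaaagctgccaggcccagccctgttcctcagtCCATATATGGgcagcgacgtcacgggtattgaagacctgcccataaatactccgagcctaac
None of these 3 genes passed the test (log2 fold changes of 0.45, 0.08 for Fosl2 probe 1, and -0.14). A match is a run of letters, and binding was not measured here. Sites outside these windows, or differing from the letters given, were not searched for, so a gene without a match may still hold such sites.

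The genes around the members were described from lists, each gene by its brightest tested probe, with counts beside the members' own. Of 12 tested AP-1 partners and other leucine zipper factors, 6 were above 0 and 6 below, none passed, and the median log2 fold change was 0.03. Crem, a cAMP-responsive factor, was highest at 0.89 (SE 0.39, adjusted p = 0.503 in limma) and Batf2, an interferon-linked AP-1 partner, lowest at -0.36 (SE 0.50, adjusted p = 0.844). Batf2 was near background, being well above it on 3 of 4 EXO-Post BSA arrays and 1 of 3 EXO-Post Palm arrays, so it was tested through EXO-Post BSA alone. Of 3 tested genes of the EGR family and its NAB corepressors, none passed. Egr3 was at 0.18 (SE 0.34, adjusted p = 0.895 in limma) and Nab1, which restrains EGR proteins, at -0.23 (SE 0.25, adjusted p = 0.793). Like Batf2, Egr3 was well above background on 3 of 4 EXO-Post BSA arrays and 1 of 3 EXO-Post Palm arrays.

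The 29 tested genes of the MAP kinase and SRF pathway upstream of the members included none that passed, with 10 above 0, 19 below and a median of -0.08. Elk4, an SRF partner, was highest at 0.61 (SE 0.30, adjusted p = 0.543 in limma), and Map2k4, a kinase that activates JNK, lowest at -0.72 (SE 0.25, adjusted p = 0.375). Of 16 tested stress genes around Atf3, 8 were above 0, 8 below, none passed and the median was 0.00, from -0.56 in Gadd45a (SE 0.44, adjusted p = 0.713) to 0.62 in Ddit4 (SE 0.27, adjusted p = 0.502).

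Other immediate early genes held 1 of 37 tested that passed. That was Nr4a2, an orphan nuclear receptor, which rose from a mean of -1.85 to 1.22. It measured -1.70, -1.79, -1.74 and -2.17 on the EXO-Post BSA arrays and 0.88, 1.04 and 1.74 on the EXO-Post Palm arrays, so all EXO-Post Palm arrays lay far above all the others. Its log2 fold change was 3.07 (SE 0.26, adjusted p = 0.0108 in limma). The list had 23 genes above 0, 14 below and a median of 0.14, and its lowest was Ctgf, a matrix protein gene, at -1.35 (SE 0.36, adjusted p = 0.226). At an unadjusted limma p under 0.05, 8 of the 37 were higher and 6 lower, beside 4.85 and 5.19% of all tested probes. These counts are descriptions, since the lists were chosen with earlier results of these data known.

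Of 20 tested genes known as AP-1 or EGR targets, 1 passed, 11 were above 0, 9 below and the median was 0.06. By unadjusted limma p under 0.05, 7 of these 20 were higher and 2 lower, again as a description beside 4.85 and 5.19% of all tested probes. Ccnd1, which encodes the G1 cyclin D1, rose. It measured -0.49, -0.45, -0.21 and 0.07 on the EXO-Post BSA arrays and 0.98, 1.53 and 2.01 on the EXO-Post Palm arrays, with no overlap and a log2 fold change of 1.77 (SE 0.28, adjusted p = 0.0421 in limma). Il6, the gene of the cytokine interleukin 6, had the highest difference of the list at 3.14 and did not pass (SE 0.65, adjusted p = 0.105 in limma). Its EXO-Post Palm arrays were spread over -0.30, -2.30 and 1.00, yet all lay above the EXO-Post BSA arrays (-3.97 to -3.40). Per the paper, qRT-PCR also gave higher Il6 with EXO-Post Palm. Mmp10, a matrix protease gene, was lowest at -0.91 (SE 0.46, adjusted p = 0.563 in limma). Its signal was near background, with means of -4.23 in EXO-Post BSA and -5.14 in EXO-Post Palm. It was well above background on 3 of 4 EXO-Post BSA arrays and 1 of 3 EXO-Post Palm arrays, so it was tested through EXO-Post BSA alone. The share of all tested probes that passed with higher values was 0.463%, and neither Nr4a2 nor Ccnd1 passed without EXO-Post BSA replicate 1, when 0 probes did by limma.

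**Figure D4:**
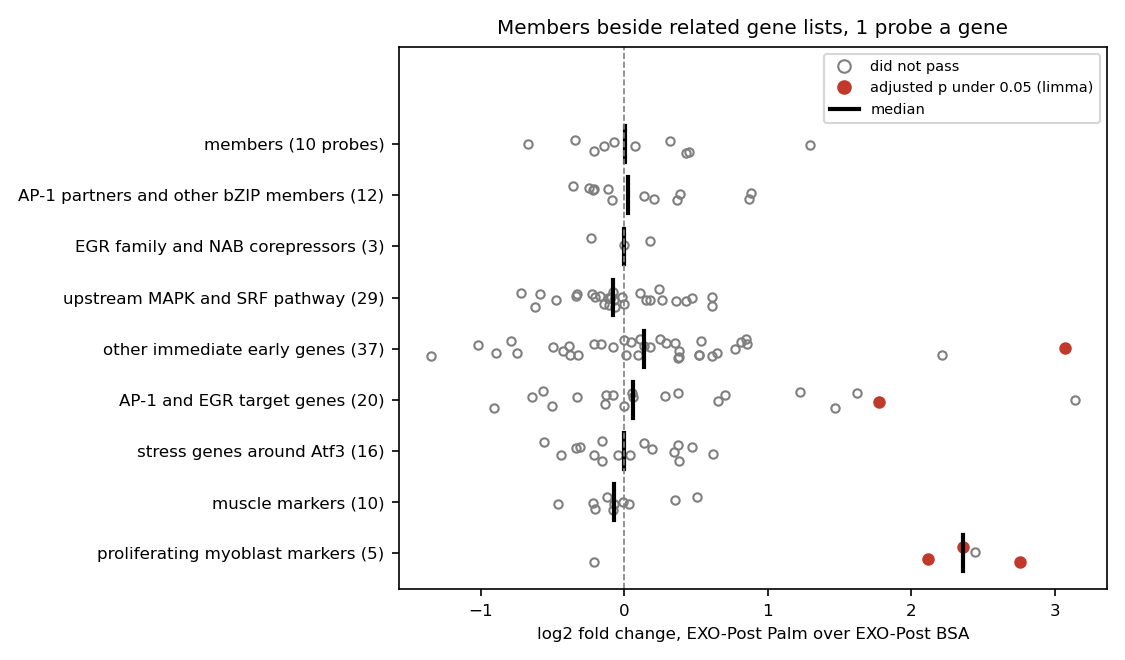
Log2 fold change of EXO-Post Palm over EXO-Post BSA (horizontal axis) of single genes (points) in the member set and 8 related lists (vertical axis, tested genes in brackets), filled where limma's adjusted p was under 0.05, with black bars at the medians. The medians of the members (0.00) and of all lists but 1 lie between -0.08 and 0.14, and the markers of proliferating myoblasts have a median of 2.36.

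The probes whose 7 values were most like those of Fos and Egr1 were found by Pearson's r over the arrays, as a description that shares array, slide and scaling. The search covered tested probes outside the members that had a value on every array and a gene name other than an accession. Nup153, a nuclear pore gene, was nearest to Fos (r = 0.980, Spearman's rho = 1, r = 0.972 without the 2 arrays farthest from the median), and Cul5 was also among the nearest, at 0.97. Nearest to Egr1 were Smad3, a mediator of TGF-beta signals, at 0.983 (rho = 0.964, and r = 0.946 without the 2 farthest arrays), Snx11 at 0.982 and Rrn3 at 0.978. Smad3 had a log2 fold change of -0.61 and an adjusted p of 0.419 in limma, beside -0.67 and 0.434 for Egr1. Snx11 was at -0.11 (adjusted p = 0.87 in limma) and Rrn3 at -0.45 (0.519). These probes were picked for values like those of Egr1, so a like difference between the groups is no separate result.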

How the data were processed

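RNA of C2C12 cells was measured on 7 one-colour Agilent arrays, 4 of EXO-Post BSA and 3 of EXO-Post Palm, after labelling of 100 ng. The deposited scanner output holds the processed signal, an intensity after background subtraction without scaling between arrays. The authors also deposited log2 values made with Agi4x44PreProcess and limma, with settings not given in the sources used here, and its rows were joined by their order (rank correlation with the median intensity at least 0.9936). The labels name Feature Extraction 9.1, the file headers 10.7.3.1 and, for EXO-Post BSA replicate 3, 11.5.1.1. That output had no mean intensity, so the settings on unprocessed intensity used the median on all arrays.

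Processed signals were put on the log2 scale and each array's 75th percentile was subtracted, per probe, leaving out control spots and outlier spots. No spot was saturated. From 48.5 to 70.3% of probes were well above background per array, and the small number of arrays limits the precision. Tested probes were those that the scanner software called well above background in 75% or more of a group's arrays. The comparison used limma 3.58.1 under R 4.3.3 (jsonlite 2.0.0 and data.table version 1.17.8), with Benjamini-Hochberg adjustment over all tested probes, after the fit had been tested on simulated data. Single probes also had an exact permutation test, 2-sided. Alternatives changed the background, scaling, filter, block, weights, variance model, test or arrays. Members and lists were chosen with earlier results of these data known, so their counts are descriptions. Named genes were all members, of each related list the highest, the lowest and any gene that passed, and the 3 probes most like Fos and Egr1 (1 of these is not reported here). Positions of probes are on mm9, as annotated for the array.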

Additional observations from a re-analysis of the deposited data

How the results depend on the processing

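No member probe passed the adjusted threshold in any of the 21 settings that used one, and 2 did without adjustment (Fosl1 and Egr1), both by limma and by the methods' t-test. Over all tested probes, 115 passed as reported. The count was 0 without the probe filter and 0 by the methods' t-test with Benjamini-Hochberg adjustment (2108 without adjustment, and 2169 by unadjusted limma p). It was 181 with slide as a random block (correlation within slide 0.233), 180 with array weights and 173 with a trended and robust variance. With 1 array left out it ran from 0 (without EXO-Post BSA replicate 1) to 202 (without EXO-Post Palm replicate 2). The sign turned for Jun, to 0.0173 after normexp correction, 0.0172 after subtraction with a floor and 0.0301 in the authors' values. It turned for Fos, to 0.156 with slide as a fixed block, 0.0155 without EXO-Post BSA replicate 1 and 0.0825 without EXO-Post Palm replicate 2. It turned for Fosl2 probe 1, to -0.0136 without EXO-Post BSA replicate 1, and for Egr2, to 0.0633 without EXO-Post Palm replicate 3. With 1 array left out these values ran from -0.181 to 0.0825 for Fos, from -0.0136 to 0.239 for Fosl2 probe 1, from -0.316 to 0.0633 for Egr2, from -0.655 to -0.102 for Jun, from -0.327 to -0.0362 for Jund, from 0.0929 to 0.474 for Atf3, from 0.270 to 0.602 for Junb and from 0.292 to 0.798 for Fosb. The cause was not tested. Fosb, Fosl1, Junb, Jund, Egr1 and Atf3 kept their sign in all settings.

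Arrays with the same replicate number did not deviate together (correlations of 0.122, -0.15 and -0.148 for numbers 1 to 3), so the numbers were not taken to pair them. With the replicate block, 0 of all probes and 0 of the members passed.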
